A study of Homo sapiens with 6 samples.

Results

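The genes described here encode the subunits of the 5 oxidative phosphorylation complexes, and they were read in HK-2 cells, an established human renal proximal tubule line, kept in high glucose. A gene was taken as a member when it was listed as protein_coding and its symbol carried one of the subunit names (NDUFA, NDUFB, NDUFC, NDUFS or NDUFV with a number, SDHA to SDHD, UQCR, COX4 to COX8, ATP5F1, ATP5M, ATP5P, or the mitochondrial MT-ND, MT-CO, MT-ATP and MT-CYB names). The rule found 99 genes among 31831 listed genes, of which 17551 were protein_coding. Of these 99 genes, 86 lie on 22 nuclear chromosomes and 13 on the mitochondrial chromosome. The rule used no measured level. It leaves out cytochrome c1 (CYC1), cytochrome c (CYCS) and NDUFAB1, which are given separately below, and it takes in NDUFA4 and NDUFA4L2, which are placed here with complex IV because NDUFA4 is a subunit of cytochrome c oxidase.

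Libraries from 2 groups were compared, with 3 libraries in each. The HG-NC libraries came from cells carrying the empty lentiviral vector (the control plasmid of the labels), and the HG-OE libraries from cells carrying the vector that overexpresses HNRNPF, the gene of the RNA-binding protein hnRNP-F. Both groups shared the cell line, the lentiviral delivery and the high-glucose medium, so no library here shows the cells without virus or in ordinary glucose. The comparison asks how the subunit mRNAs of each complex, from each genome, differed when hnRNP-F was raised.

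Oxidative phosphorylation passes electrons from NADH through complex I, or from succinate through complex II, to coenzyme Q, then through complex III and cytochrome c to complex IV, where oxygen is reduced. Complexes I, III and IV pump protons across the inner mitochondrial membrane, and complex V, the ATP synthase, lets them back to make ATP. Complex II is built from nuclear genes alone, whereas the other complexes join nuclear subunits to subunits read from the mitochondrial chromosome, and the proximal tubule depends on this pathway to drive its reabsorption. The mitochondrial mRNAs are cut from long transcripts that cover most of the chromosome, so their genes lie end to end or overlap.

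The overlap matters for reading the counts, and 3 junctions are shown because the results below turn on the genes on either side of them. In the first 2 sequences the capitals mark bases that belong to both genes, and in the third they mark bases of MT-ND6, which is read from the other strand (GRCh38).
MT-ATP8 and MT-ATP6 (chrM:8515-8584, plus strand): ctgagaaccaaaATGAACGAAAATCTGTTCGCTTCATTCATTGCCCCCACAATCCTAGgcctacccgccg
MT-ND4L and MT-ND4 (chrM:10748-10778, plus strand): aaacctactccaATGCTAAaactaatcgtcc
MT-ND5 and MT-ND6 (chrM:14125-14172, plus strand): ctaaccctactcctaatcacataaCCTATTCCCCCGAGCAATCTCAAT
MT-ATP8 and MT-ATP6 share 46 bases and MT-ND4L and MT-ND4 share 7, while MT-ND5 ends on the base next to the last base of MT-ND6. Reads across such a junction belong to more than 1 gene, so the values of these pairs are not independent.

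Total counts per library ran from 25507595 to 29444841. HNRNPF itself was at 304, 319 and 311 CPM (counts scaled to the same library total) in the HG-NC libraries and at 430, 452 and 423 in the HG-OE libraries, 1.4-fold higher (log2 fold change 0.48 ± 0.039 SE, edgeR adjusted p = 2.80e-07). Of 12 markers of a proximal tubule line, 6 (KRT8, KRT18, KRT19, VIM, CDH2 and PAX8) were at 1 FPKM or more in every library, with a summed level from 416 to 681, while LRP2, CUBN, AQP1, ANPEP, GGT1 and SLC34A1 were at or near 0. HG-OE replicate 3 stood apart in markers of other cells. The 8 hepatocyte markers summed to 140 FPKM there, against 83.3 and 83.9 in the other HG-OE libraries and 48.6 to 50.4 in HG-NC. Outside replicate 3 nearly all of that sum was SERPINA1, which was at 47.4 to 50.03 FPKM in HG-NC, at 82.9 and 82.3 in HG-OE replicates 1 and 2 and at 71.2 in replicate 3. ALB was at 38.4 FPKM in HG-OE replicate 3 against at most 0.73 elsewhere, and APOA2 at 14.6 against at most 0.20. Both next highest values were in HG-NC replicate 3, where ALB had 78 counts and FGA 65, against at most 4 in the other HG-NC libraries. The 7 squamous markers summed to 6.55 FPKM in HG-OE replicate 3 and to at most 0.13 elsewhere, and the skeletal or heart muscle markers stayed at 0.20 or below in every library. The source of these reads and their part in the subunit values were not tested. The counts over the subunits of each genome and complex and over the gene lists are given with and without HG-OE replicate 3.

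All 13 mitochondrial genes and 81 of the 86 nuclear genes had enough counts to be tested. NDUFA7, COX6B2, COX7A1, COX8C and ATP5MGL were left out, with totals of 20, 24, 1, 6 and 1 counts over the 6 libraries. COX6B2, COX7A1 and COX8C are known as testis or muscle forms of complex IV subunits. NDUFA7 shares 32.5% of its exonic bases with another listed gene on the same strand that held 5093 counts, so its own low count cannot be read as absence of the mRNA.

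Subunit mRNAs were higher in HG-OE more often than lower, and by small amounts. In bulk libraries such as these, fewer cells of a type and less RNA per cell cannot be told apart. Of the 81 tested nuclear subunits, 37 rose, 15 fell and 29 did not pass the test (edgeR quasi-likelihood, adjusted p under 0.05). Among all 17142 tested genes 25.9% rose and 25.9% fell, so that 45.7% of the nuclear subunits against 25.9% of genes rose and 18.5% against 25.9% fell. The median log2 fold change was 0.083 over the nuclear subunits, 0.19 over the mitochondrial genes and 0.011 over all tested genes. Of the 13 mitochondrial genes 8 rose, 1 fell and 4 did not pass. Without HG-OE replicate 3 the nuclear counts were 35 higher and 17 lower, and the mitochondrial counts 8 and 1. The nuclear count lower dropped to 9 without HG-NC replicate 1 and to 10 without HG-NC replicate 3 or HG-OE replicate 2, while the count higher was 31 to 36 over the 6 omissions of 1 library.

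By complex, leaving out HG-OE replicate 3 changed the nuclear counts in complexes I and V. In complex I 12 genes rose in place of 14, since NDUFS5 and NDUFV2 lost their calls, and 8 fell as before. In complex V 9 rose as before and 3 fell in place of 1, since ATP5MC1 (log2 fold change -0.24, adjusted p = 0.000463) and ATP5PF (-0.12, adjusted p = 0.0306) became called, ATP5PF being named here after its values were seen. The counts of complexes II, III and IV and of the mitochondrial genes of each complex were the same with and without it.

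No subunit passed the study's double criterion of an adjusted p under 0.05 with a change of at least 2-fold, which 5.82% of all tested genes met, and the count was 0 by edgeR and 0 by DESeq2. Over the 61 called subunits the median size of the change was 0.23 on the log2 scale. In 5 it was 0.5 or more, all of them higher in HG-OE (UQCRC1, NDUFA2, MT-ND6, UQCRQ and SDHA). The groups were fully apart, with HG-OE above, in 37 nuclear and 8 mitochondrial subunits, and with HG-OE below in 13 nuclear and 0 mitochondrial subunits. Over all tested genes 29.6% were without overlap in the higher direction and 29.4% in the lower.

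**Figure D1:**
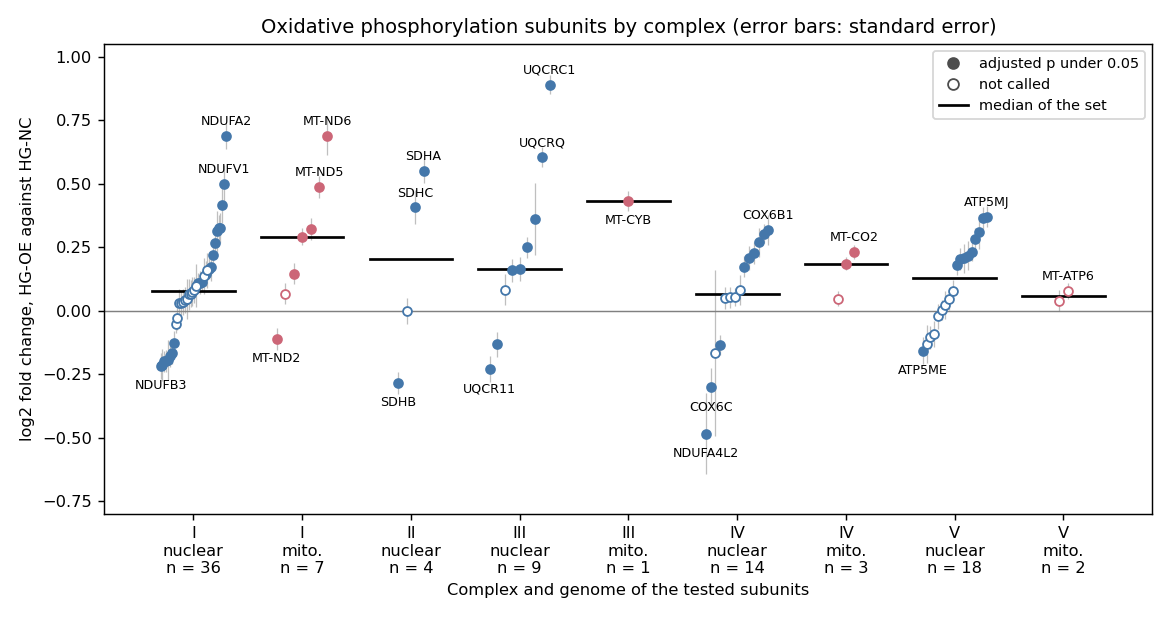
The vertical axis is the log2 fold change of HG-OE against HG-NC (3 libraries each) and each point is 1 of the 94 tested subunits, grouped by complex and genome. Filled points passed an adjusted p of 0.05, error bars are standard errors and the black line is the median of the set. UQCRC1 at 0.89 is the highest point and NDUFA4L2 at -0.48 the lowest, and the medians run from 0.058 for mitochondrial complex V to 0.43 for MT-CYB.

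Complex III, which moves electrons from coenzyme Q to cytochrome c, held the largest change. UQCRC1 encodes core protein 1 of the complex and lies at chr3:48599002-48610976 (minus strand). It was at 146, 151 and 151 CPM in HG-NC and at 271, 283 and 276 in HG-OE, a 1.85-fold difference (log2 fold change 0.89 ± 0.038 SE, adjusted p = 1.02e-09). The HG-OE libraries all lay far above the HG-NC libraries and close to each other. Its partner UQCRC2, core protein 2, was at 71.9 ± 2.86 CPM in HG-NC against 76.2 ± 6.61 in HG-OE (SD, n = 3) and did not pass (adjusted p = 0.26).

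UQCRQ, a small subunit that sits beside cytochrome b (chr5:132866630-132868847, plus strand), was at 85.6, 83.0 and 82.9 CPM in HG-NC and at 132, 127 and 124 in HG-OE, 1.52-fold higher (log2 fold change 0.60 ± 0.041 SE, adjusted p = 6.27e-08). UQCR10, UQCRB and UQCRH, further small subunits, rose by 0.25, 0.16 and 0.16 on the log2 scale, the call of UQCRB being lost without HG-NC replicate 2 or 3 (adjusted p = 0.0772 and 0.0591) and that of UQCRH without HG-NC replicate 2 (adjusted p = 0.0552). UQCRHL, a near copy of UQCRH on the same chromosome, was at 4.12 ± 0.498 CPM in HG-NC against 5.29 ± 0.483 in HG-OE (SD, n = 3; adjusted p = 0.048), and since uniquely mapped reads were counted, reads that match both genes were left out of both. Its call was lost without any 1 of the 5 libraries other than HG-OE replicate 3 (adjusted p up to 0.176). UQCRFS1, the Rieske iron-sulfur protein that carries the electron, fell by 0.13 (adjusted p = 0.037), although its groups overlapped and the call was lost without any 1 of the 5 libraries other than HG-OE replicate 3 (adjusted p up to 0.162). UQCR11 fell by 0.23, from 58.1 ± 2.94 to 49.5 ± 1.09 CPM (SD, n = 3), with every HG-OE library below every HG-NC library.

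Of the 9 nuclear complex III genes 6 rose (66.7%, against 25.9% of all tested genes), 2 fell (22.2%, against 25.9%) and 1 did not pass, with a median of 0.16. Their summed level was 931, 886 and 910 CPM in HG-NC against 1108, 1117 and 1155 in HG-OE, a ratio of 1.24. The mitochondrial subunit MT-CYB, cytochrome b, was at 3551, 3815 and 3518 CPM in HG-NC and at 4692, 5045 and 4944 in HG-OE (log2 fold change 0.43 ± 0.038 SE, adjusted p = 6.46e-07), a ratio of 1.35. The nuclear sum and MT-CYB were both higher in each HG-OE library than in any control library. CYC1, the cytochrome c1 subunit that the name rule leaves out, rose as well, from 119 ± 5.89 to 153 ± 3.88 CPM (SD, n = 3; log2 fold change 0.36, adjusted p = 1.26e-05).

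Complex II, succinate dehydrogenase, showed changes in both directions among only 4 genes. SDHA, the flavoprotein with the active site (chr5:218303-257082, plus strand), was at 79.4, 82.0 and 83.5 CPM in HG-NC and at 113, 118 and 127 in HG-OE, 1.46-fold higher (log2 fold change 0.55 ± 0.048 SE, adjusted p = 6.21e-07). SDHC, a membrane anchor, was at 100.2, 85.2 and 87.8 CPM in HG-NC and at 111, 119 and 132 in HG-OE (log2 fold change 0.41 ± 0.067 SE, adjusted p = 0.000187). The other anchor, SDHD, had a log2 difference of -0.00014 ± 0.051 SE (adjusted p = 0.998). SDHB, the iron-sulfur subunit (chr1:17018664-17054032, minus strand), went the other way, with 106, 106 and 105 CPM in HG-NC against 82.1, 88.1 and 89.7 in HG-OE, and it fell by 0.28 on the log2 scale (SE 0.044, adjusted p = 1.00e-04). SDHA shares 21.7% of its exonic bases with another listed gene on its strand, so part of its count may belong there.

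**Figure D2:**
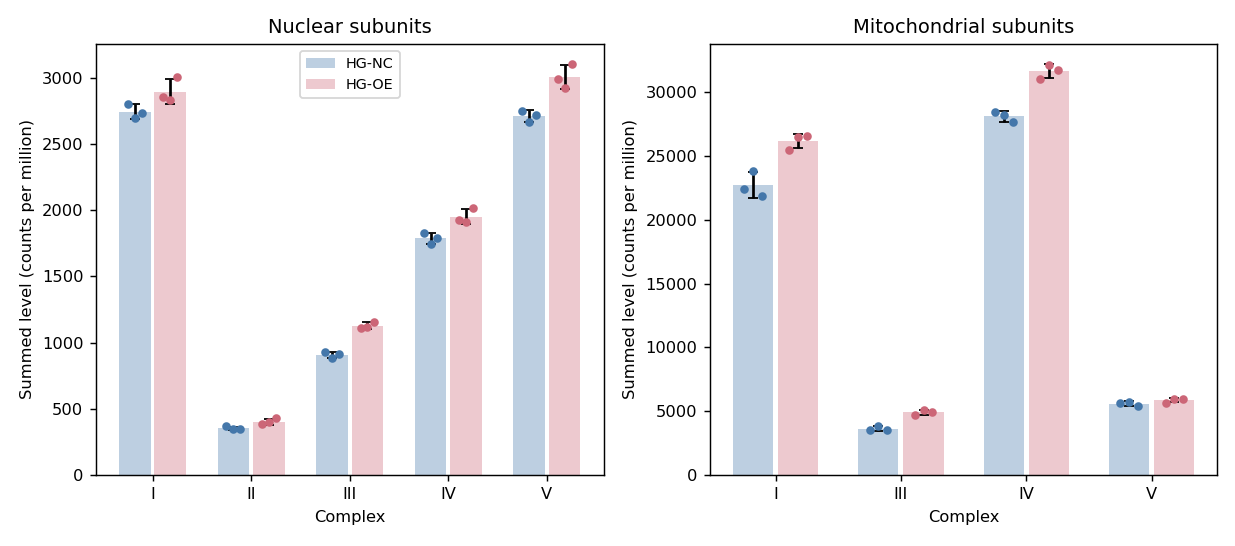
Bars are the mean summed level in CPM of each complex's listed subunits in HG-NC and HG-OE, points are the 3 libraries of each group and error bars are SD, with nuclear subunits on the left and mitochondrial subunits on the right. Complex III is separated in both panels (909 to 1127 CPM on the left, 3628 to 4894 on the right), while the HG-NC and HG-OE points of mitochondrial complex V overlap.

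Complex I, the NADH dehydrogenase, had the most members. Of its 36 tested nuclear genes 14 rose (38.9%, against 25.9% of all tested genes), 8 fell (22.2%, against 25.9%) and 14 did not pass (median 0.078). The largest rise was in NDUFA2 (chr5:140638740-140647771, minus strand), an accessory subunit of the matrix arm, at 40.5, 37.3 and 40.9 CPM in HG-NC against 62.0, 63.7 and 65.5 in HG-OE (1.61-fold, log2 fold change 0.69 ± 0.052 SE, adjusted p = 1.77e-07). All 3 HG-OE libraries were alike and well above the control libraries.

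Nuclear core subunits, which carry the flavin and the iron-sulfur clusters, changed in both directions. NDUFV1, which binds NADH and the flavin, was at 78.0, 73.9 and 79.2 CPM in HG-NC and at 97.7, 103 and 126 in HG-OE (log2 fold change 0.50 ± 0.075 SE, adjusted p = 8.79e-05). NDUFS8, an iron-sulfur subunit near the quinone site, rose from 58.1 ± 0.548 to 77.6 ± 10.1 CPM (SD, n = 3; log2 fold change 0.42, adjusted p = 0.000289). In both genes HG-OE replicate 3 was the highest library, and both stayed called without it. NDUFV2 rose by 0.11 (adjusted p = 0.0491) with overlapping groups, and without replicate 3 its adjusted p was 0.0827. NDUFS1, which holds iron-sulfur clusters, fell by 0.20 (adjusted p = 0.00111), from 121 ± 3.79 to 105 ± 2.49 CPM (SD, n = 3). NDUFS3 and NDUFS7 had log2 differences of 0.075 and 0.064 and did not pass.

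Among the 28 tested accessory subunits of complex I, 10 rose (35.7%), 6 fell and 12 did not pass, where 25.9% of all tested genes rose and 25.9% fell. After NDUFA2 the largest rises were NDUFB6 and NDUFA6, at 0.33 each (adjusted p = 0.000414 and 9.70e-05), with 43.9 ± 3.40 and 67.3 ± 2.49 CPM in HG-NC against 55.0 ± 1.69 and 84.3 ± 4.44 in HG-OE (SD, n = 3). The largest falls were NDUFB3 and NDUFS4, by 0.22 and 0.21 (adjusted p = 0.00283 and 0.0120), and NDUFS4 is an assembly-linked subunit of the matrix arm. The call of NDUFS4 was lost without HG-NC replicate 1 or HG-OE replicate 2 (adjusted p = 0.0679 and 0.0571). NDUFA10 fell by 0.20 and NDUFA13 by 0.17. NDUFS5, the nuclear complex I gene with the highest level per length (mean 257 FPKM), rose by 0.15 (adjusted p = 0.0241), and its adjusted p was 0.0545 without HG-OE replicate 3. NDUFC2 covers 51.8% of the exonic bases of the readthrough gene NDUFC2-KCTD14, so the rise of 0.31 in NDUFC2-KCTD14 (adjusted p = 0.00496, and 0.19 without HG-OE replicate 3) and the uncalled 0.14 in NDUFC2 (adjusted p = 0.126) cannot be assigned to one or the other.

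The mitochondrial complex I genes moved further than the nuclear ones. Of the 7 genes 5 rose (71.4%, against 25.9% of all tested genes), with a median of 0.29. MT-ND6 was at 255, 251 and 200 CPM in HG-NC and at 371, 402 and 363 in HG-OE (1.61-fold, log2 fold change 0.69 ± 0.075 SE, adjusted p = 4.53e-06). MT-ND5 was at 2046, 2215 and 1959 CPM and then at 2792, 2925 and 3004 (log2 fold change 0.49 ± 0.044 SE, adjusted p = 8.08e-07). Neither gene's groups overlapped. MT-ND4L and MT-ND4, which share a transcript, rose by 0.32 and 0.29 (adjusted p = 3.67e-05 and 6.31e-06), and MT-ND3 by 0.15 (adjusted p = 0.00875, and 0.0678 without HG-NC replicate 3).

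MT-ND1 was at 4604 ± 275 CPM in HG-NC against 4824 ± 122 in HG-OE (SD, n = 3) and did not pass (adjusted p = 0.176). MT-ND2 fell by 0.11, from 3772 ± 181 to 3493 ± 192 CPM (SD, n = 3; adjusted p = 0.0451), with overlapping groups, and the call was lost when any of 5 of the 6 libraries was left out. The summed level of nuclear complex I mRNA was 2746 ± 55.3 CPM in HG-NC against 2896 ± 94.2 in HG-OE, and that of mitochondrial complex I mRNA 22705 ± 1013 and 26175 ± 578 (SD, n = 3). Both sums were higher in every HG-OE library than in any HG-NC library.

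Complex IV, cytochrome c oxidase, rose in 2 of its 3 mitochondrial subunits (66.7%) and in 6 of its 14 tested nuclear ones (42.9%), against 25.9% of all tested genes. MT-CO1, which holds the oxygen-reducing centre, was at 12042, 11975 and 11812 CPM in HG-NC and at 13369, 13833 and 13530 in HG-OE (log2 fold change 0.19 ± 0.026 SE, adjusted p = 4.02e-05). MT-CO2, which takes the electron from cytochrome c, was at 9941, 9801 and 9420 CPM and then at 11286, 11615 and 11328 (log2 fold change 0.23 ± 0.028 SE, adjusted p = 1.43e-05). MT-CO3, the third mitochondrial subunit, was at 6436 ± 21.8 and 6650 ± 238 CPM (SD, n = 3) and did not pass (adjusted p = 0.216). MT-CO2 had the highest level per length of all subunits, with a mean of 13737 FPKM.

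Among the nuclear complex IV genes 3 fell (21.4%, against 25.9% of all tested genes) and 5 did not pass beside the 6 that rose (median 0.067). COX4I1, the large regulatory subunit, was at 346, 324 and 338 CPM in HG-NC and at 414, 412 and 415 in HG-OE (log2 fold change 0.30 ± 0.037 SE, adjusted p = 1.38e-05). COX6B1, which faces cytochrome c, rose by 0.32 (adjusted p = 0.000527) from 98.6 ± 2.35 to 123 ± 12.2 CPM (SD, n = 3), again with replicate 3 the highest. COX8A, NDUFA4, COX5A and COX7B rose by 0.27, 0.23, 0.21 and 0.17. COX8A shares 35.4% of its exonic bases with another listed gene on its strand.

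The tissue forms of complex IV subunits were read side by side. COX6A1, the form found in most tissues, was at 253 ± 2.94 CPM in HG-NC against 263 ± 4.75 in HG-OE (SD, n = 3; adjusted p = 0.239), while the muscle form COX6A2 stayed at 1.11 CPM or below in every library. COX7A2 was at 119 ± 9.66 and 126 ± 7.83 CPM (SD, n = 3; adjusted p = 0.272), and its relative COX7A2L, which helps complexes III and IV to associate, fell by 0.13 (adjusted p = 0.0114). NDUFA4 and NDUFA4L2, the form known to be induced in hypoxia, went in opposite directions. NDUFA4L2 was at 7.0, 5.02 and 6.80 CPM in HG-NC and at 3.79, 4.50 and 5.16 in HG-OE, and fell by 0.48 (SE 0.16, adjusted p = 0.0204). Its groups overlapped by 1 library, and the adjusted p reached 0.105 when 1 library was left out. COX6C, at 112, 94.1 and 104 CPM in HG-NC against 81.7, 75.5 and 94.2 in HG-OE, fell by 0.30 (adjusted p = 0.00414), also with an overlap.

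Complex V, the ATP synthase, rose in each subunit of its catalytic head and in few of its other parts. The 5 subunits of the catalytic F1 head (ATP5F1A, ATP5F1B, ATP5F1C, ATP5F1D and ATP5F1E) all rose, by 0.18 to 0.28 (100%, against 25.9% of all tested genes). ATP5F1B, the catalytic beta subunit and the most abundant nuclear gene of the complex per length (mean 253 FPKM), was at 586, 582 and 589 CPM in HG-NC and at 666, 684 and 712 in HG-OE (log2 fold change 0.23 ± 0.036 SE, adjusted p = 0.000111). ATP5F1C, the gamma subunit that forms the rotating shaft, was at 133, 121 and 123 CPM and then at 151, 149 and 157 (log2 fold change 0.28 ± 0.045 SE, adjusted p = 0.000143). For all 5 genes the lowest HG-OE value was above the highest HG-NC value.

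The c-ring, the rotor in the membrane, is encoded by 3 nuclear genes that give the same mature protein. ATP5MC3 rose by 0.22 (adjusted p = 0.0055) from 131 ± 2.08 to 153 ± 14.3 CPM (SD, n = 3), and by 0.14 without HG-OE replicate 3. ATP5MC2 was at 165 ± 3.20 and 166 ± 3.93 CPM and ATP5MC1 at 45.8 ± 1.14 and 41.8 ± 5.28 CPM (SD, n = 3), neither called with all 6 libraries (adjusted p = 0.973 and 0.157). Of the 9 tested stalk and membrane subunits 2 rose (22.2%, against 25.9% of all tested genes), 1 fell and 6 did not pass. ATP5MJ rose by 0.37 and ATP5MF by 0.36 (adjusted p = 7.30e-06 and 8.21e-06), and ATP5ME fell by 0.16 (adjusted p = 0.0249). The call of ATP5ME was lost without any 1 of the 3 HG-NC libraries or without HG-OE replicate 2 (adjusted p up to 0.124). ATP5MF also lies within the readthrough gene ATP5MF-PTCD1, which rose by 0.31. ATP5ME shares 61.3% of its exonic bases with MYL5 on the opposite strand.

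The mitochondrial subunits of complex V did not pass. MT-ATP6, the channel subunit, was at 4129, 4203 and 4012 CPM in HG-NC and at 4192, 4422 and 4420 in HG-OE (log2 difference 0.078 ± 0.032 SE, adjusted p = 0.0565). MT-ATP8 was at 1537, 1492 and 1395 CPM and then at 1448, 1555 and 1540 (log2 difference 0.038 ± 0.041 SE, adjusted p = 0.464). The groups overlapped for both genes.

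**Figure D3:**
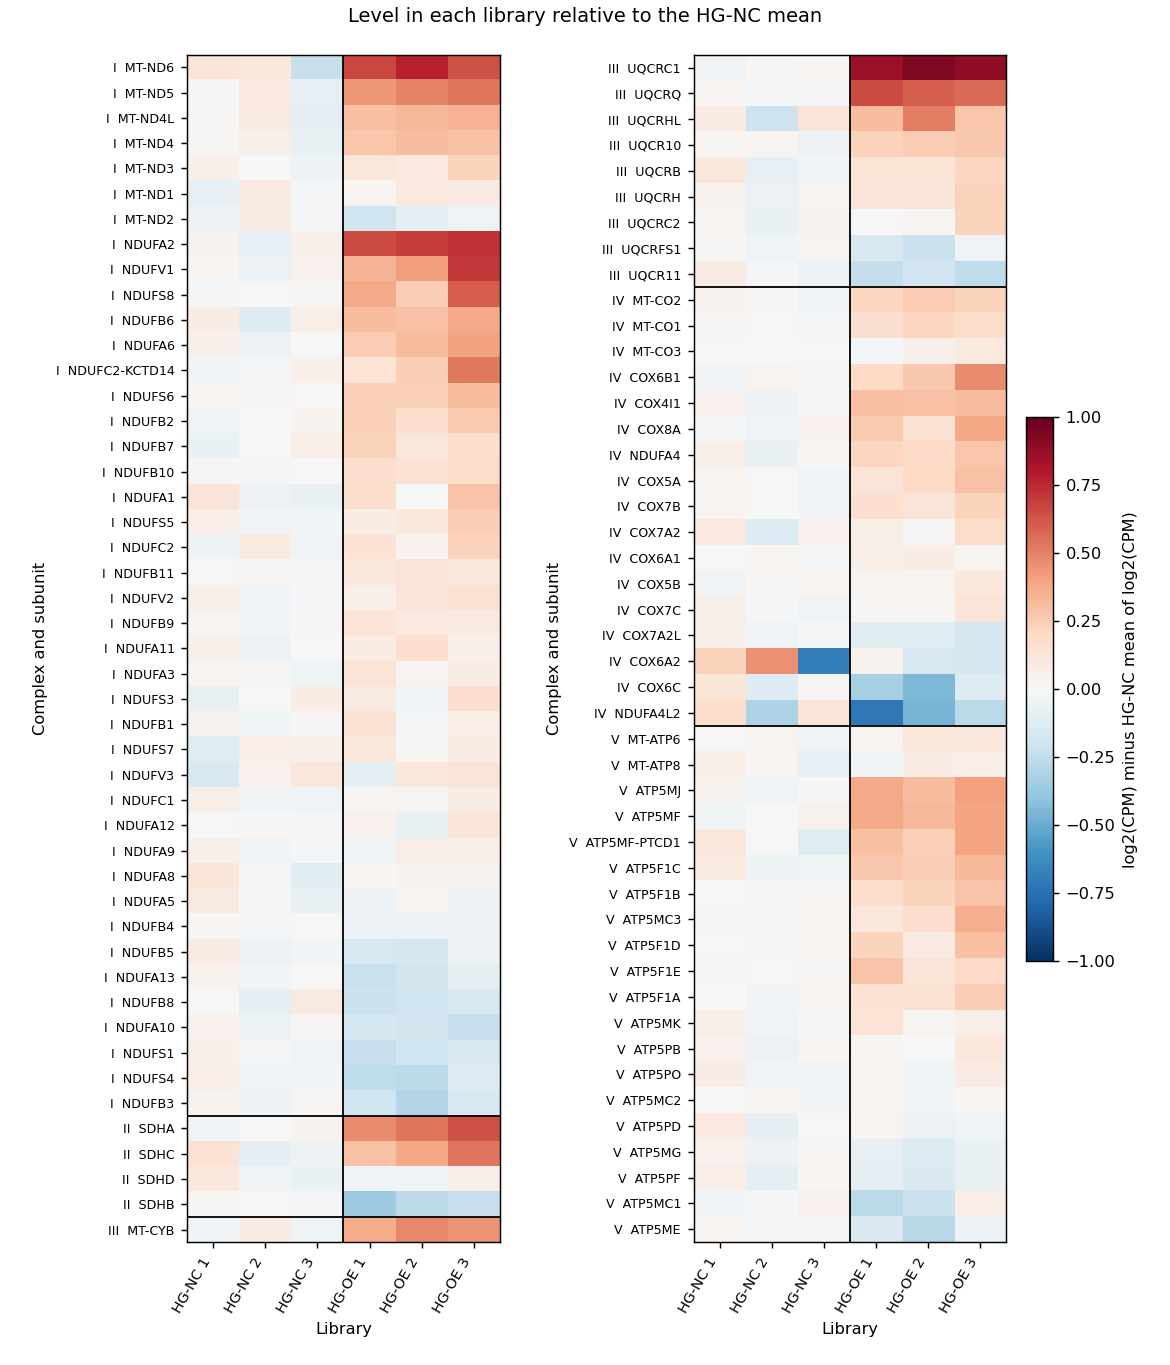
Each cell is the log2 level (CPM) of 1 of 93 tested subunits in 1 library minus the mean of the 3 HG-NC libraries, with red higher and blue lower, rows grouped by complex with mitochondrial genes first and then sorted by fold change. The 3 HG-OE columns carry the same colour for UQCRC1, NDUFA2, MT-ND6 and SDHA, while HG-OE replicate 3 is the reddest of the 3 in NDUFV1, NDUFS8 and COX6B1.

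The genomes were then set side by side. The nuclear subunits summed to 8686, 8337 and 8507 CPM in HG-NC and to 9260, 9183 and 9704 in HG-OE, a ratio of 1.1. The mitochondrial genes summed to 60040, 61580 and 58448 CPM in HG-NC and to 66897, 69618 and 69182 in HG-OE, a ratio of 1.14, and took 6.0% ± 0.157 of all counted pairs in HG-NC and 6.84% ± 0.122 in HG-OE (SD, n = 3). In every HG-OE library both sums were above those of every HG-NC library.

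The balance between the genomes did not separate the groups. Mitochondrial over nuclear CPM was 6.91, 7.39 and 6.87 in HG-NC and 7.22, 7.58 and 7.13 in HG-OE. By complex the mean ratio was 8.27 ± 0.492 and 9.04 ± 0.272 for complex I, 4.0 ± 0.270 and 4.34 ± 0.151 for complex III, 15.7 ± 0.398 and 16.2 ± 0.534 for complex IV, and 2.06 ± 0.0762 and 1.95 ± 0.0840 for complex V (SD, n = 3). The groups overlapped in each of these 4 complexes, complex I by a margin of 1 library. The direction was up for complexes I, III and IV and down for complex V, and with 3 libraries in a group none of these shifts stood clear of the spread.

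Per length the genomes were far apart. The 13 mitochondrial genes had mean levels from 519 FPKM (MT-ND6) to 13737 FPKM (MT-CO2) with a median of 4387, and the tested nuclear subunits from 1.51 FPKM (COX6A2) to 257 FPKM (NDUFS5) with a median of 31.1. By FPKM the lowest mitochondrial mRNA was thus above the highest nuclear one. That order rests on the gene length by which the counts were divided. In HG-NC ATP5F1E was above MT-ND6 in CPM (292 against 235) but below it in FPKM (51.4 against 401). The annotated exons of ATP5F1E add up to 5081 bases and those of MT-ND6 to 525, and the length of the mRNA actually made was not measured. MT-ND6, the lowest, is the mitochondrial mRNA known to lack a poly(A) tail, and by the study's methods the libraries were made from RNA captured by that tail. Whether the capture had a part in its level was not tested.

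Along the mitochondrial chromosome the changes followed gene order in part. Of the 13 genes 12 are read from the plus strand. In order from the rRNA end the log2 differences were 0.067 for MT-ND1, -0.11 for MT-ND2, 0.19 for MT-CO1, 0.23 for MT-CO2, 0.038 for MT-ATP8, 0.078 for MT-ATP6, 0.047 for MT-CO3, 0.15 for MT-ND3, 0.32 for MT-ND4L, 0.29 for MT-ND4, 0.49 for MT-ND5 and 0.43 for MT-CYB. The values were high in the last 4 genes and low or near 0 around MT-ND2 and from MT-ATP8 to MT-CO3. Across the 12 genes position and log2 difference had a Pearson correlation of 0.797 and a Spearman correlation of 0.734, and a Pearson correlation of 0.772 without HG-OE replicate 3. This is a description across genes that share libraries, transcripts and junction reads, which are not independent replicates. MT-ND6, from the other strand, lies between the last 2 genes and had the largest value. The strand setting of the counts is not given, so plus-strand reads across MT-ND6 may be among its counts.

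The rRNA genes at the start of the same strand differed from each other. MT-RNR2, for the large rRNA, was at 17072, 16785 and 16295 CPM in HG-NC and at 13778, 12771 and 13632 in HG-OE (log2 fold change -0.32 ± 0.032 SE, adjusted p = 2.06e-06). MT-RNR1, for the small rRNA, was at 1670, 1715 and 1648 CPM and then at 1776, 1834 and 2475 (log2 fold change 0.27 ± 0.090 SE, adjusted p = 0.0207), a difference that was 0.11 without HG-OE replicate 3. Of 21 tested mitochondrial tRNA genes 5 rose (23.8%, against 25.9% of all tested genes) and 1 fell, and without that library 4 rose and 2 fell. Their small size and the poly(A) capture limit what these counts say of the tRNAs.

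**Figure D4:**
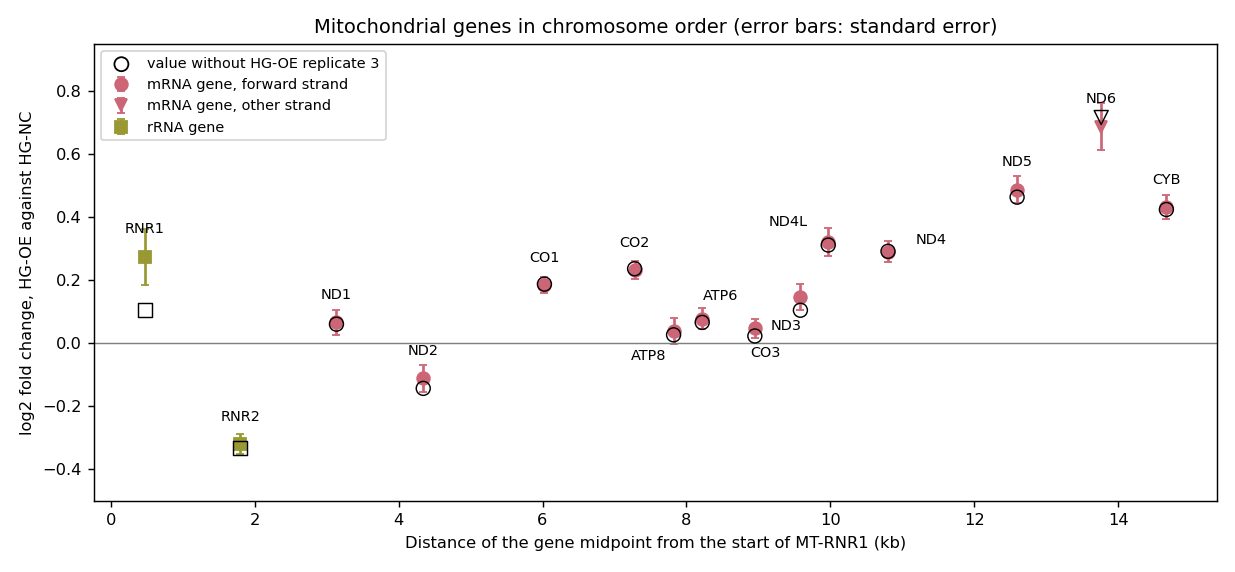
The horizontal axis is the distance of each gene's midpoint from the start of MT-RNR1 in kb and the vertical axis the log2 fold change of HG-OE against HG-NC, with standard errors, for the mitochondrial mRNA and rRNA genes. Open outlines are the values without HG-OE replicate 3. They lie on the filled points for most genes, and MT-RNR1 moves from 0.27 to 0.11.

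Nuclear pseudogene copies of mitochondrial mRNA genes were counted from the reads that map to them uniquely. Of 40 listed copies 7 had enough counts to be tested, 2 rose (28.6%, against 25.9% of all tested genes) and 5 did not pass. MTATP6P1, a nuclear copy of MT-ATP6, was at 568 ± 21.6 CPM in HG-NC against 635 ± 10.7 in HG-OE (SD, n = 3; log2 fold change 0.16, adjusted p = 0.00275), against 4115 ± 96.5 and 4345 ± 132 CPM for MT-ATP6. MTND1P23 passed 2-fold (log2 fold change 1.56, adjusted p = 0.0368) through HG-OE replicate 3 alone, with 20, 17 and 17 counts in HG-NC and 27, 18 and 130 in HG-OE.

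Whole stretches of the nuclear chromosomes differed between the groups, and several subunits moved with the genes around them. The median log2 fold change over tested genes was -0.25 on chromosome 2 (1137 genes), 0.13 on chromosome 3 (936 genes), 0.22 on chromosome 5 (716 genes) and 0.13 on chromosome 11 (894 genes). The largest rises were UQCRC1 on chromosome 3, NDUFA2, UQCRQ and SDHA on chromosome 5, and NDUFV1 and NDUFS8 on chromosome 11. The median of the tested genes within 10 Mb was 0.55 around UQCRC1, 0.28 around NDUFA2, 0.28 around UQCRQ, 0.19 around SDHA and 0.20 around NDUFV1. After that median was taken away, the differences were 0.34, 0.41, 0.32, 0.36 and 0.29.

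Subtracting the neighbours turned the sign of 8 of the 52 called nuclear subunits and kept that of 44. NDUFB3, NDUFS1 and COX7A2L on chromosome 2 went from falls to 0.18, 0.18 and 0.20, because the genes around them fell further (medians of -0.39, -0.38 and -0.33). SDHB stayed below at -0.086, with neighbours at -0.20, and NDUFA4L2 at -0.55, with neighbours at 0.063. The F1 subunits ATP5F1A, ATP5F1B, ATP5F1C and ATP5F1D stayed above, at 0.11 to 0.25, while ATP5F1E was close to its neighbours (0.20 against 0.19, leaving 0.015). NDUFA6 was close to its neighbours too, at 0.33 against 0.31, leaving 0.016. The median over all nuclear subunits was 0.089 after the subtraction against 0.083 before it. The cause of the chromosomal differences was not tested.

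**Figure D5:**
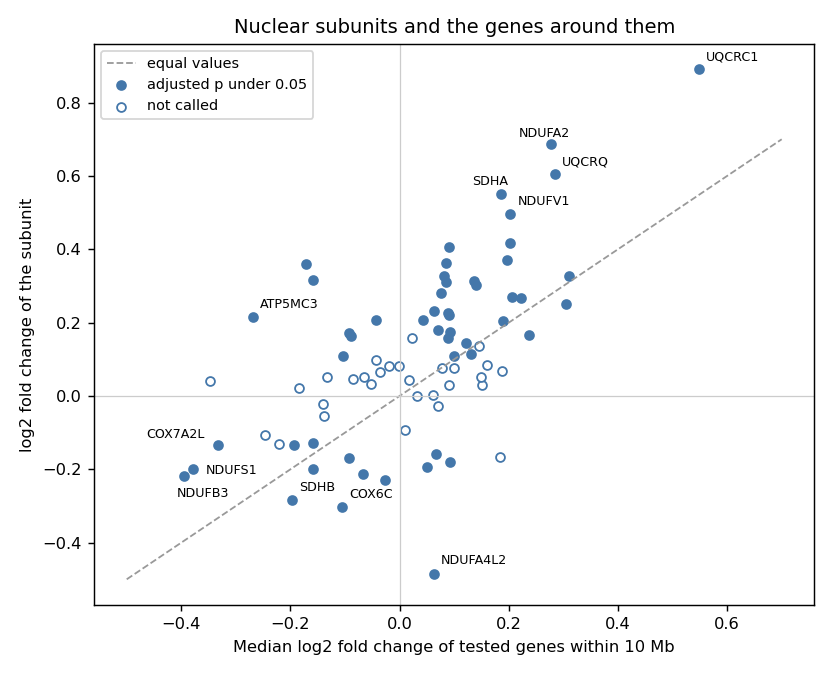
Each point is 1 of the 81 tested nuclear subunits, with the median log2 fold change of the tested genes within 10 Mb on the horizontal axis and its own log2 fold change on the vertical axis, and filled points passed an adjusted p of 0.05. UQCRC1 stands at 0.55 and 0.89, above the dashed line of equal values, and NDUFB3 and NDUFS1 lie above that line although their own values are negative.

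Promoters of the subunit genes are known for sites of NRF1, of ETS-family factors such as GABP, and of YY1. A window from 250 bases before to 50 bases after the RefSeq start was available for 68 of the 86 nuclear subunits, and 3 of them are shown up to base 25 after the start because they are the fallen SDHB, which held all 3 motifs, the risen UQCRQ, and ATP5F1C from the F1 head (RefSeq, GRCh38.p14). Each is written 5′ to 3′ on the gene's strand, and capitals mark any motif letters on either strand.
SDHB (chr1:17054008-17054282, minus strand): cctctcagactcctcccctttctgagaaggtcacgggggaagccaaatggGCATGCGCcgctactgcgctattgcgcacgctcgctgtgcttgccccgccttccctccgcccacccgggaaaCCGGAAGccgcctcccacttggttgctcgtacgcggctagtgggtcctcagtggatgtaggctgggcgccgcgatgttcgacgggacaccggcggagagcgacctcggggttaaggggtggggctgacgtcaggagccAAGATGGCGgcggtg
UQCRQ (chr5:132866392-132866666, plus strand): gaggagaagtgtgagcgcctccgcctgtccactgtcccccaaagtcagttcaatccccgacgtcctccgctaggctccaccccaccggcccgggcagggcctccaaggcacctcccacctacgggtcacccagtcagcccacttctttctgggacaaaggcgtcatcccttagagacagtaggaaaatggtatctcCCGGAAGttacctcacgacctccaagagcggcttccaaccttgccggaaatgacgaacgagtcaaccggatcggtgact
ATP5F1C (chr10:7787927-7788201, plus strand): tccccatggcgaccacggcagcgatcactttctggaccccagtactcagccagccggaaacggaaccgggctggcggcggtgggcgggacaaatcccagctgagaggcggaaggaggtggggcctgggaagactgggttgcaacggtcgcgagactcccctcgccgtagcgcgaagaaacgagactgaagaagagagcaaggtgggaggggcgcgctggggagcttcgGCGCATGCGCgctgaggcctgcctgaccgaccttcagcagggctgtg
The letters searched on both strands were GCATGCGC for NRF1, CCGGAAG for ETS and AAGATGGCG for YY1. The NRF1 letters are nearly their own reverse complement, so 1 site can match on both strands and counts once per promoter.

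NRF1 letters stood in 13 of the 68 windows (19.1%), against 5.35% of 10765 windows of tested protein_coding genes and 3.27% of all 27305 windows. ETS letters stood in 20 (29.4%, against 18.7% and 10.7%), and YY1 letters in 8 (11.8%, against 3.83% and 1.85%). Risen and fallen subunits both held them. NRF1 letters were in 3 of 26 risen, 2 of 11 fallen and 8 of 28 uncalled subunits, ETS letters in 6, 5 and 9 of the same sets, and YY1 letters in 2, 2 and 3. The other 3 windows belong to subunits that were not tested. A match of letters is a description of the window and says nothing of whether a factor was bound.

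Electron carriers and the genes that build the complexes did not follow the subunits as one. CYCS, cytochrome c itself, was at 301, 268 and 270 CPM in HG-NC and at 221, 203 and 232 in HG-OE (log2 fold change -0.35 ± 0.056 SE, adjusted p = 0.000121), while NDUFAB1, the acyl carrier subunit of complex I, was at 47.1 to 51.5 CPM in all 6 libraries (adjusted p = 0.244). For the lists that follow, 25.9% of all tested genes rose and 25.9% fell, or 26.7% and 27.2% without HG-OE replicate 3. Of 18 complex I assembly factors 5 rose and 6 fell (median -0.021). NUBPL, which delivers iron-sulfur clusters, rose by 0.59 (adjusted p = 0.000247) and NDUFAF5 fell by 0.58 (adjusted p = 1.05e-05).

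Of 10 complex II and III assembly factors 3 rose and 3 fell (median 0.028), with UQCC1, needed for cytochrome b, up by 0.65 (adjusted p = 6.71e-08) and UQCC2 down by 0.28 (adjusted p = 9.78e-05). Of 23 complex IV assembly factors 4 rose and 10 fell (median -0.080). SCO2, a copper chaperone, rose by 0.62 (adjusted p = 2.83e-06), and COX17, the copper carrier to the complex, fell by 0.51 (adjusted p = 3.16e-06). Of 5 ATP synthase assembly factors and inhibitor genes 1 rose and 4 fell (median -0.38). FMC1, an assembly factor, went from 12.1 ± 1.17 to 6.73 ± 0.840 CPM (SD, n = 3; log2 fold change -0.85, adjusted p = 3.91e-05), and ATP5IF1, the inhibitor of reverse ATP hydrolysis, fell by 0.19 (adjusted p = 0.00228). Of 12 tested coenzyme Q synthesis genes 3 rose and 4 fell (median -0.052), with COQ10B down by 0.35 (adjusted p = 0.00018).

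Genes that keep and express the mitochondrial chromosome were lower more often than higher, in contrast to the direction of most mitochondrial mRNAs. Shifts of the surrounding genes, such as the median of -0.25 on chromosome 2, were not subtracted from the values of this list or the others. Their part in the list counts was not tested. Of 27 tested genes of mitochondrial transcription, RNA processing and stability 3 rose, 12 fell and 12 did not pass (median -0.10). PNPT1, the mitochondrial polynucleotide phosphorylase, went from 64.0 ± 3.17 to 39.9 ± 2.16 CPM (SD, n = 3; log2 fold change -0.68, adjusted p = 3.70e-07). FASTKD2 and MTPAP, the latter the mitochondrial poly(A) polymerase, fell by 0.62 and 0.42 (adjusted p = 3.99e-06 and 0.000241), and FASTK rose by 0.32 (adjusted p = 5.99e-05). Among the transcription factors of the chromosome, chosen after their values were seen, POLRMT and TFB2M fell by 0.19 and 0.29 (adjusted p = 0.0166 and 0.000128), and TFAM was at 81.4 ± 4.37 and 81.6 ± 4.27 CPM (SD, n = 3; adjusted p = 0.962).

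Of 8 genes of mitochondrial DNA replication 3 fell (RNASEH1 by 0.53, MGME1 by 0.52 and POLG2 by 0.40) and 5 did not pass. Of 11 regulators of mitochondrial biogenesis 2 rose and 4 fell (median -0.12). GABPB1 and GABPA, the subunits of the ETS factor GABP, fell by 0.53 and 0.32 (adjusted p = 4.09e-06 and 0.0058), and SIRT3 rose by 0.31 (adjusted p = 0.0272). Of 78 mitochondrial ribosomal protein genes 18 rose and 28 fell (median -0.046), from MRPS6 at -0.63 to MRPS25 at 0.61. The tricarboxylic acid cycle genes went the way of the subunits, with 10 of 20 higher and 5 lower (median 0.099). IDH2, the mitochondrial NADP-dependent isocitrate dehydrogenase, went from 57.0 ± 1.79 to 123 ± 0.975 CPM (SD, n = 3; log2 fold change 1.11, adjusted p = 4.24e-10) and was the 1 gene of that list past 2-fold, and MPC2, a subunit of the mitochondrial pyruvate carrier, fell by 0.48 (adjusted p = 3.06e-07).

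The list counts were also taken without HG-OE replicate 3. The assembly factor counts, higher and lower, were 5 and 7 for complex I, 3 and 2 for complexes II and III, 3 and 11 for complex IV, and 0 and 4 for ATP synthase. They were 2 and 4 for coenzyme Q synthesis, 3 and 11 for mitochondrial transcription and RNA processing, 0 and 3 for replication, 3 and 5 for the regulators of biogenesis, 17 and 30 for the ribosomal proteins, 10 and 6 for the tricarboxylic acid cycle, and 2 and 0 for the pseudogene copies.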

How the data were processed

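By the study's methods the 6 libraries were poly(A)-captured, directional, paired RNA-seq libraries. The labels name a total RNA kit beside a poly(A) kit, and the poly(A) kit of the methods is taken here. The authors deposited gene counts and FPKM values. By the study's methods, reads were trimmed, aligned to GRCh38 with HISAT2 (also named in the submitters' processing notes), and uniquely mapped reads were counted, which keeps reads shared by mitochondrial genes and their nuclear copies out of both. The counter, its strand setting and the annotation are not given in the sources used here, nor is whether a batch adjustment that the methods mention entered the deposited counts. Without the strand setting, overlapping genes on opposite strands cannot be told apart. The deposited FPKM values, which the authors scaled by length and depth, served to compare levels between genes.

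Genes passing edgeR's filterByExpr (17142 of 31831) were tested across the whole table with edgeR 4.0.16 (TMM, quasi-likelihood, R 4.3.3), with Benjamini-Hochberg adjustment over all of them. CPM was computed from the counts with TMM-scaled library sizes. Alternatives used DESeq2 1.42.0 and limma 3.58.1. Summed levels, medians and ratios were described without a test. Positions come from GENCODE annotation of GRCh38, and neighbours are tested genes within 10 Mb. Nothing in the labels says that the libraries came from separate cultures. The study calls them biological replicates, and its methods describe parallel wells of HK-2 cells for each group. P-values therefore measure the spread between these libraries, which may be partly technical.

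Most named genes followed a rule: all mitochondrial mRNA genes, the core subunits, the tissue forms, the most abundant member, and up to 3 largest rises and falls per complex and up to 3 per list among called genes. Some were named outside it with their values known, among them NDUFB6, NDUFA6, NDUFA10, NDUFA13, UQCR10, UQCRB, COX5A and COX7B. The members, the lists (assembly factors, electron carriers, coenzyme Q synthesis, mitochondrial transcription, replication, biogenesis, tricarboxylic acid cycle, ribosome, pseudogene copies, cell type markers) and this rule were chosen with earlier results of these data known. Total counts were 25507595 to 29444841 per library, and the fit gave a biological coefficient of variation of 0.0683. Counting error comes on top of it and weighs more the fewer counts a gene has. It is a large part of the spread in genes such as UQCRHL (96 to 170 counts per library) and NDUFA4L2 (110 to 190). The values of 1 member are not reported here, and it enters only counts, sums and medians.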

Additional observations from a re-analysis of the deposited data

How the results depend on the processing

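Every nuclear and mitochondrial count of calls, both medians and the count past 2-fold were recomputed under 15 alternatives. The count past 2-fold stayed at 0 in each of them, and no called subunit changed direction in any refit. The nuclear subunits called higher numbered between 27 and 38, and the mitochondrial genes called higher between 7 and 9 except for 4 with log2(FPKM + 1) and no filter. Leaving out 1 library at a time, nuclear subunits called higher numbered 31 to 36, nuclear subunits called lower 9 (without HG-NC replicate 1) to 17 (without HG-OE replicate 3), mitochondrial genes called higher 7 to 9 and called lower 0 to 1, and the median was 0.0843 to 0.113 over nuclear subunits and 0.172 to 0.195 over mitochondrial genes. Of the 61 called subunits 45 kept their call whichever library was left out. The single fall among mitochondrial genes, MT-ND2, was also lost (count 0) with no low-count filter, with at least 10 counts in every library, and in the 3 FPKM fits. With no low-count filter or no FPKM filter many more low genes entered the adjustment (31831 and 31643 genes).

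When the neighbours' median was subtracted, 8 called nuclear subunits changed sign, to 0.197 for COX7A2L, -0.0708 for NDUFB10, -0.0177 for NDUFB11, 0.177 for NDUFB3, 0.0300 for NDUFB5, 0.180 for NDUFS1, -0.0541 for UQCR10 and 0.0610 for UQCRFS1. The deviations from the group means had same-numbered correlations of -0.027, 0.030 and -0.001. They gave no sign that the replicate numbers pair the libraries, but with 3 libraries in a group they cannot exclude it. With the replicate number as a block, 36 nuclear subunits rose and 14 fell, 8 mitochondrial genes rose and 1 fell, and the medians were 0.0828 and 0.185. In the FPKM fits with a filter, over all genes, 19.2% (pseudocount 1) and 19.4% (pseudocount 0.1) were called higher and 21.9% and 22.0% lower. With 3 libraries in a group, changes of a few percent in subunits near 10 CPM lie below what the spread allows to be called.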
